A study of Mus musculus with 2 samples.

Results

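Nr5a1, Nr0b1, Gata4, Gata6, Creb1, Ncoa2, Tcf21 and Wt1 are 8 genes for transcription factors and coregulators that are known for their part in the adrenal cortex or in its precursor tissue. They were chosen by gene name from 16674 annotated genes with reads, and every transcript model that carried one of these names was taken. That gave 78 of 92074 models with 1169 of 587861 reads in replicate 2, and 60 of 88152 models with 391 of 810239 reads in replicate 1. Total RNA of adrenal glands of wild-type C57BL/6J mice, obtained from The Jackson Laboratory, was sequenced with long reads. The 2 biological replicates come from separate biosamples of a single group, both with the same entry in the donor field; whether a biosample is 1 animal or a pool is not given in the sources used here. The labels describe the glands as female but give the sex field as not collected and the age as unknown. With no second condition, the comparison open to these data is how far the replicates differ, and ratios below are replicate 2 over replicate 1. A long read covers a cDNA molecule as far as it was copied, so it shows which exons were joined in that molecule, and it counts once whatever the length.

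Nr5a1 encodes steroidogenic factor 1 (SF-1), an orphan nuclear receptor that binds the promoters of steroid synthesis genes and without which neither adrenal glands nor gonads form in mice. Nr0b1 encodes DAX-1, a nuclear receptor without the usual zinc fingers that binds SF-1 and represses its activity. GATA factors bind next to SF-1 at many of the same promoters: Gata6 is the member expressed in the adult mouse adrenal cortex, and Gata4 is expressed in the fetal adrenal and in the gonads. Creb1 encodes the transcription factor that protein kinase A phosphorylates after corticotropin raises cyclic AMP. Ncoa2 encodes a p160 coactivator of nuclear receptors. Wt1 and Tcf21 mark the coelomic epithelium and the mesenchyme from which cortex and capsule arise, and Tcf21 also antagonises Nr5a1 expression in the capsule.

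The tissue label was checked against markers. All 6 cortex markers were detected, with a summed level of 89127 CPM (counts per 1e+06 reads of the library) in replicate 2 and 77214 CPM in replicate 1. All 6 markers of the medulla were detected at 8499 and 6204 CPM. The gonad list summed to 1.70 and 4.94 CPM, with Insl3 and Amh at 0 reads in both libraries, and the mesothelium list to 10.2 and 8.64 CPM, with Krt19 at 0. The capsule and stroma list summed to 230 and 342 CPM with Gli1 at 0, fat to 34.0 and 105 CPM, and endothelium to 420 and 162 CPM. The libraries also differed in the length of what they hold: over reads on annotated models, the median of the model's length was 3052 nt in replicate 2, against 1648 nt in replicate 1. The unspliced share was 7.89% in replicate 2, against 14.4% in replicate 1.

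Nr5a1 stood far above the other 7 genes in both libraries, and the low members were close to the limit of detection. Nr5a1 had 1104 reads in replicate 2 and 244 in replicate 1, which is 1878 CPM (95% Clopper-Pearson interval 1769 to 1992) and 301 CPM (265 to 341). Among all genes it ranked 37th in replicate 2 and 521st in replicate 1. Nr0b1 had 17 and 54 reads, or 28.9 CPM (16.8 to 46.3) in replicate 2 and 66.6 CPM (50.1 to 87.0) in replicate 1. Gata6 had 16 and 78 reads, or 27.2 CPM (15.6 to 44.2) in replicate 2 and 96.3 CPM (76.1 to 120) in replicate 1. For each of these 3 genes the intervals of the libraries do not overlap. The intervals cover counting error only, and 66.2% of all genes tested differed between the libraries by the exact test below. The lack of overlap is therefore not a result about these 3 genes.

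Ncoa2 had 14 reads in replicate 2 and 7 in replicate 1, Creb1 8 and 5, and Gata4 7 and 2. Their intervals overlapped between the libraries. Wt1 had 2 reads in replicate 2 and 1 in replicate 1, and Tcf21 had 1 read in replicate 2. It had 0 in replicate 1, a count that allows up to 3 reads or 3.70 CPM. In CPM the means were 1090 ± 1115 for Nr5a1, 61.7 ± 48.8 for Gata6, 47.8 ± 26.7 for Nr0b1, 16.2 ± 10.7 for Ncoa2, 9.89 ± 5.26 for Creb1, 7.19 ± 6.67 for Gata4 and 2.32 ± 1.53 for Wt1 (SD, n = 2). In replicate 2 only Nr5a1 stood apart from its neighbour in the order of levels, and the intervals of Nr0b1, Gata6, Ncoa2, Creb1 and Gata4 overlapped. In replicate 1 Nr5a1 again stood apart, Gata6 and Nr0b1 overlapped with each other, and both lay above Ncoa2 (3.47 to 17.8 CPM) and the rest. In bulk tissue, fewer cells of a type and less RNA per cell cannot be told apart.

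**Figure D1:**
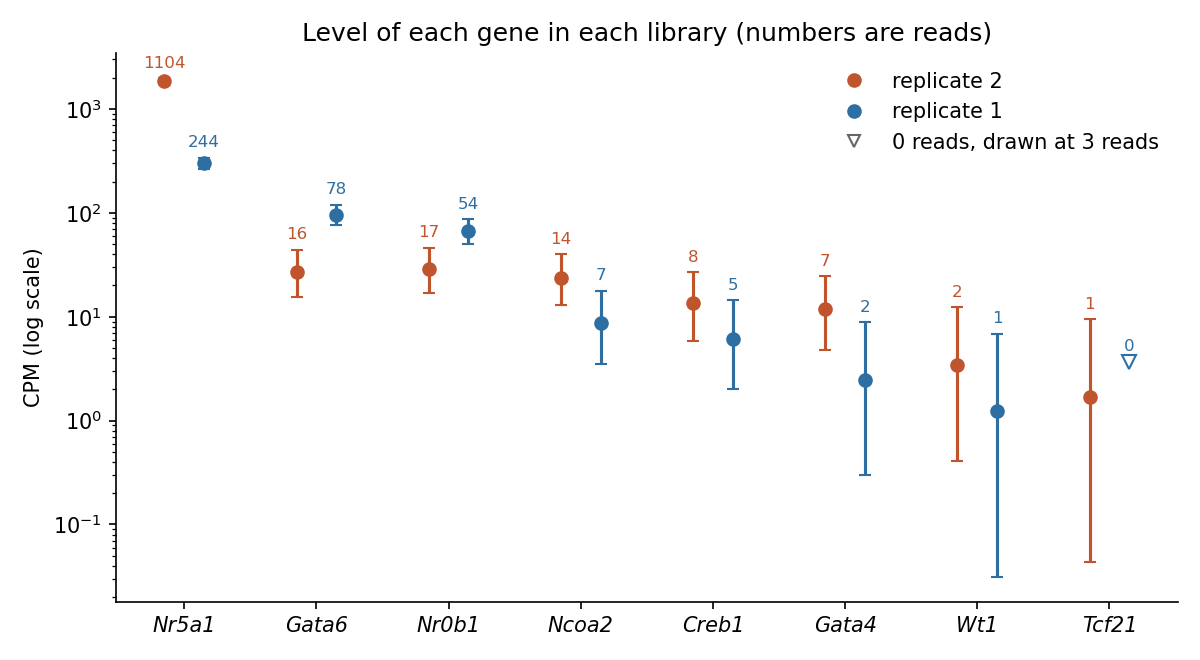
Level of the 8 genes in CPM on a log axis, with replicate 2 left of replicate 1; bars are 95% Clopper-Pearson intervals, the numbers are reads, and the open triangle marks 0 reads at the level of 3 reads. Nr5a1 lies at 1878 CPM in replicate 2 and 301 CPM in replicate 1, and Wt1 and Tcf21 have at most 2 reads in a library.

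The replicates were compared by an exact two-sided binomial test on the reads of each gene, with TMM-scaled library sizes and Benjamini-Hochberg adjustment over the 9809 genes whose reads summed to 10 or more. It called 3 of the 5 members that had enough reads, in a background of 66.2% of all genes tested, so this share is not a result about the members. Of the 3, 1 was higher in replicate 2, as were 30.6% of all genes tested, and 2 were higher in replicate 1, as were 35.6%. The test compares these 2 libraries only, with no replicate check. Nr5a1 was 4.50-fold higher in replicate 2 (95% interval 3.91 to 5.19, log2 ratio 2.17, adjusted p = 4.6e-128 by the exact test). Nr0b1 went the other way, at 3.19-fold higher in replicate 1 (1.82 to 5.88, log2 ratio -1.65, adjusted p = 2.0e-05 by the exact test). Gata6 was likewise higher in replicate 1, by 4.90-fold (2.84 to 8.997, log2 ratio -2.26, adjusted p = 1.3e-10 by the exact test). Counting only reads on annotated models, Gata6 had a log2 ratio of -0.61 and was not called (adjusted p = 0.49 by the exact test).

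Creb1 (log2 ratio 0.62, fold 1.59, interval 0.459 to 6.18) and Ncoa2 (log2 ratio 0.94, fold 1.99, interval 0.751 to 5.82) did not pass the test, with adjusted p of 0.64 and 0.24 by the exact test. Both intervals span folds in either direction. Gata4, Wt1 and Tcf21 had too few reads to be tested. The ratios of Nr5a1 to Nr0b1 and to Gata6 differed between the libraries, as the opposite signs above imply. There were 64.9 Nr5a1 reads for each Nr0b1 read in replicate 2 (95% interval 40.4 to 112) and 4.52 in replicate 1 (3.35 to 6.19). There were 69.0 Nr5a1 reads for each Gata6 read in replicate 2 (42.3 to 121) and 3.13 in replicate 1 (2.41 to 4.09). Gata6 and Nr0b1, the 2 genes higher in replicate 1, stood at 0.941 to 1 in replicate 2 (0.445 to 1.98) and 1.44 to 1 in replicate 1 (1.01 to 2.08), with intervals that overlap. Ncoa2 and Creb1 stood at 1.75 to 1 in replicate 2 (0.685 to 4.81) and 1.40 to 1 in replicate 1 (0.382 to 5.59), and these intervals overlap too.

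Model length moved with these ratios. A lowess curve of the log2 ratio against length, taken from the annotated model that held most reads of a gene, was used to set the share that each gene was tested against. Of the 9173 genes with such a length, 42.4% were called. With that adjustment Nr0b1, whose model has 1808 nt, had a log2 ratio of -0.10 and was no longer called (adjusted p = 0.96 by the exact test). Nr5a1, with 2947 nt, kept a log2 ratio of 0.97 (adjusted p = 4.0e-23 by the exact test). Gata6, with 3234 nt, lay further from the curve than from 0, at -3.68 (adjusted p = 4.6e-28 by the exact test). That length is of Gata6-201, which held only 4 of 16 reads in replicate 2 and 8 of 78 in replicate 1. For Creb1 the length is 8364 nt, of Creb1-202, which held 2 reads in replicate 2 and 1 in replicate 1. Ncoa2 was called only with the adjustment, at 3.97 (adjusted p = 1.6e-08 by the exact test). The length behind that value is 1330 nt, the length of a single-exon annotated transcript with 1 read, so it does not describe the coding mRNA of Ncoa2.

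**Figure D2:**
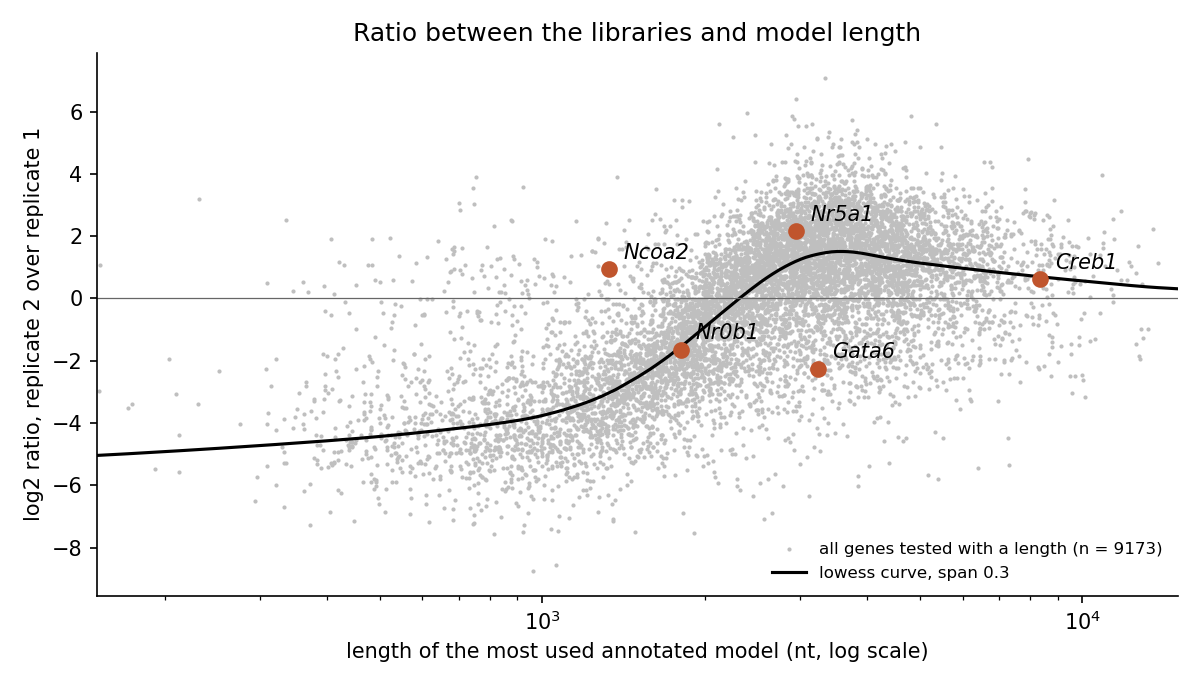
Log2 ratio of replicate 2 over replicate 1 against the length of the annotated model with most reads (log axis) for 9173 genes in grey, with the lowess curve in black and the 5 tested members in colour. Nr0b1 and Creb1 lie on the curve, Nr5a1 and Ncoa2 above it, and Gata6 below it.

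The transcripts of Nr5a1 (ENSMUSG00000026751.14, mm10 chromosome 2, 38692656 to 38714542, minus strand) were resolved in most detail. Nr5a1-201, the annotated transcript with 7 exons, was the most used model over the sum of both libraries, with 708 of 1104 reads in replicate 2 and 57 of 244 in replicate 1, where an unspliced model of the last exon had more, at 68. Its first exon is noncoding, the start codon lies in exon 2, exons 2 and 3 encode the zinc fingers of the DNA-binding domain, and exons 4 to 7 the hinge and the ligand-binding domain. In replicate 2 the share of Nr5a1-201 was 64.1% (95% interval 61.2 to 67.0), against 23.4% (18.2 to 29.2) in replicate 1. Fisher's exact test, adjusted over 4733 genes of which 28.7% were called, gave p = 2.4e-29, and with spliced models only the shares were 65.7% and 39.0% (adjusted p = 4.2e-08 by the exact test). Matched by their chain of junctions, the models of both libraries came to 63, of which 58 were spliced and 34 rested on a single read. The 13 spliced chains seen in both libraries held 1017 of the 1104 reads in replicate 2 and 136 of the 244 in replicate 1.

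The 5' ends of the reads differed as well. A first exon upstream of exon 2 was reached by 911 reads in replicate 2 (82.5%, 95% interval 80.1 to 84.7) and by 95 reads in replicate 1 (38.9%, 32.8 to 45.4). Models that begin with exon 4 and hold exons 4 to 7 were the second most read chain over both libraries, with 104 reads in replicate 2 and 38 in replicate 1; they lack both zinc finger exons. Over all chains, 9.69% of reads in replicate 2 (8.01 to 11.6) and 15.6% in replicate 1 (11.3 to 20.7) started in exon 4, and the intervals overlap slightly. Unspliced reads made up 2.36% in replicate 2 (1.54 to 3.43) and 40.2% in replicate 1 (34.0 to 46.6). Of these, 68 reads in replicate 1 covered the last exon only, and 29 covered the stretch of intron 6 next to it (38694264 to 38696128). In replicate 2, 25 unspliced reads ran through the same stretch and the last exon (38692656 to 38696127). Whether RNA begins at these places or the cDNA was incomplete was not tested.

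**Figure D3:**
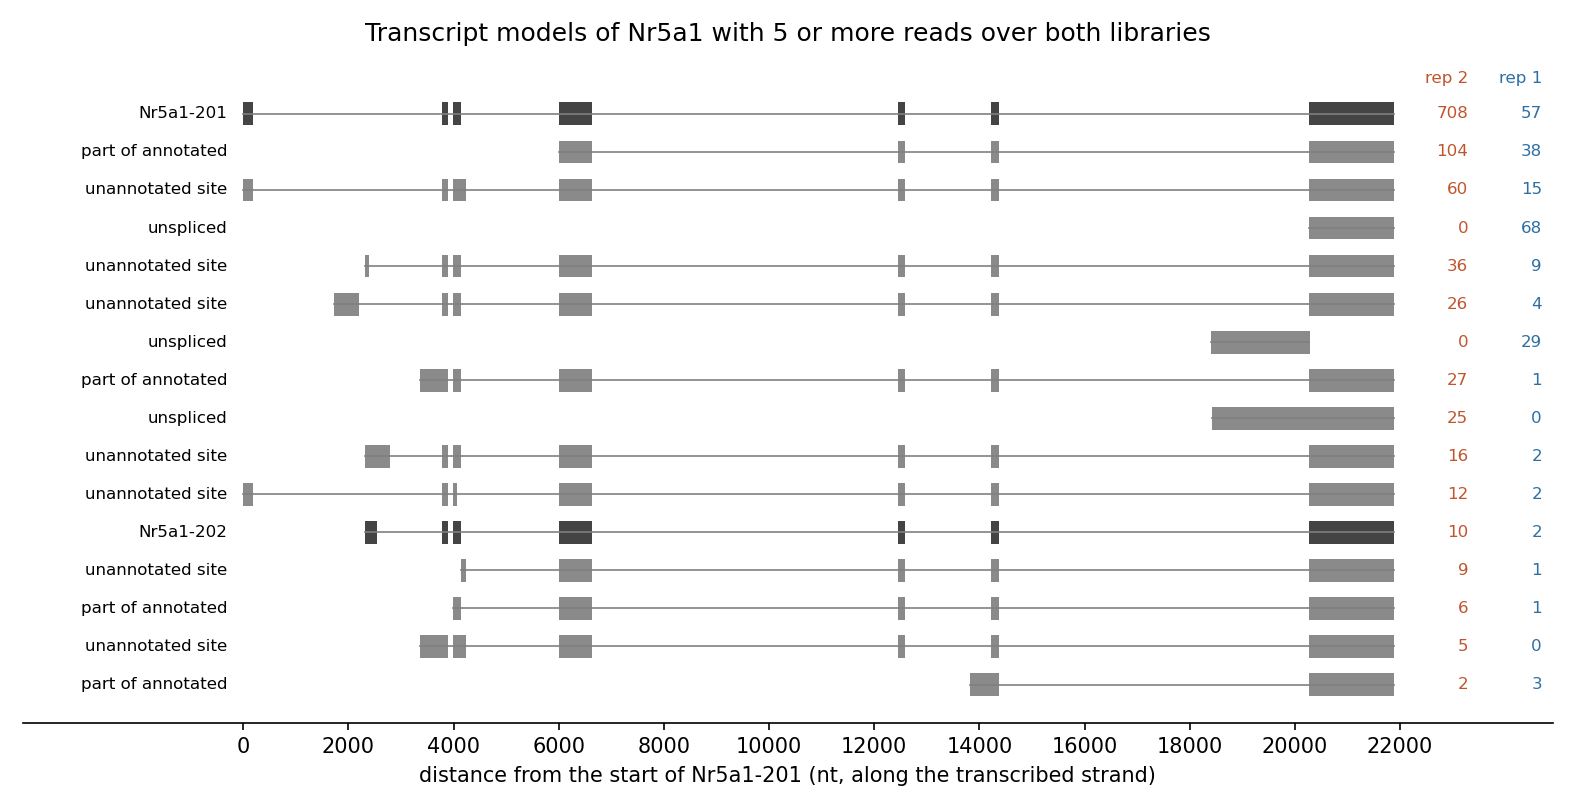
Chains of Nr5a1 with at least 5 reads over both libraries, drawn by distance from the start of Nr5a1-201 along the transcribed strand; boxes are exons (dark for annotated models), and the numbers on the right are reads in replicate 2 and replicate 1. Nr5a1-201 has 708 and 57 reads, the most over both libraries, an unspliced model has 0 and 68, several chains differ from it in the first exon alone, and 1 chain with 60 and 15 reads has a longer exon 3.

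First exons varied. They were counted by the donor of the junction into exon 2. Their upstream ends and lengths below are those of the models, not of each read. Of the reads that reach a first exon, 803 of 911 in replicate 2 (88.1%, 95% interval 85.9 to 90.2) and 75 of 95 in replicate 1 (78.9%, 69.4 to 86.6) joined the first exon of Nr5a1-201, at 38714357 to 38714542, directly to exon 2. In replicate 1, 1 further read began with that exon and had an inserted exon before exon 2, and it is counted with the donor of the inserted exon, at 38712335. The other annotated first exon, that of Nr5a1-202 at 38712006 to 38712234, was joined to exon 2 in 12 and 2 reads. More reads used donors that GENCODE M21 does not list. A 77-nt exon that shares its upstream end with Nr5a1-202 (38712158 to 38712234) had 37 reads in replicate 2 and 10 in replicate 1. A donor at 38712335, upstream of Nr5a1-202, had 31 and 5 reads, most of them from an exon of 477 nt. A 473-nt form that extends the Nr5a1-202 exon downstream (38711762 to 38712234) had 18 and 3 reads.

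Together the 4 donors with at least 10 reads other than that of Nr5a1-201 took 10.8% of these reads in replicate 2 (8.82 to 12.95) and 21.1% in replicate 1 (13.36 to 30.6). Each of the 4 was seen in both libraries. A further group of reads starts within 38710656 to 38711188, the annotated longer exon 2 of the retained-intron transcript Nr5a1-203, and reads that start in or just upstream of exon 2 without a first exon numbered 34 in replicate 2 and 1 in replicate 1. The reads with a first exon all hold exon 2, with the start codon, since the junction into it was used to count them. The 34 and 1 reads without a first exon have no such junction and were placed by overlap of their models with exon 2. In replicate 2, 1 read outside the count of first exons joined an upstream exon with the donor at 38712335 straight to a site in exon 4.

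Exon 3 showed a second choice, at its donor. Of the reads with a junction into exon 4, 858 of 964 in replicate 2 (89.0%, 95% interval 86.9 to 90.9) and 77 of 98 in replicate 1 (78.6%, 69.1 to 86.2) used the annotated donor. A donor 108 nt further downstream, at 38710302, was used by 86 reads in replicate 2 (8.92%, 7.20 to 10.9) and by 19 in replicate 1 (19.4%, 12.1 to 28.6). The intervals do not overlap, but this donor was picked out after its values were seen and the difference was not tested. The added stretch is a multiple of 3 long, and its bases are not in the transcript reference used here, so its reading frame was not analysed. The donor at 38710302 is absent from GENCODE M21, and the deposited tables label its most read chain as known sites in a new combination in replicate 2 and as an unannotated site in replicate 1. A donor 60 nt upstream of the annotated one, at 38710470, was used by 13 reads in replicate 2 (1.35%, 0.720 to 2.30) and 2 in replicate 1 (2.04%, 0.248 to 7.18).

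The sequence of exon 3 shows what that upstream donor leaves out. It is given on the transcribed strand (mm10 chr2:38710410-38710551, minus strand, from the GENCODE M21 transcript), with the 60 bases between the donors in capitals.
Nr5a1 exon 3: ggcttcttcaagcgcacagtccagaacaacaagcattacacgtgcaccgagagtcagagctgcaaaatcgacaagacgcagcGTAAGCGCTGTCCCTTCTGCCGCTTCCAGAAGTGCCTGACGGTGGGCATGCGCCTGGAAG
The stretch in capitals starts with GT, the letters with which most introns begin, and is a multiple of 3 long. In the annotated reading frame exon 3 holds 5 cysteine codons, of which 2 lie in the part kept and 3 in the 60 bases left out. Cysteines hold the zinc ions of the DNA-binding domain, but which of these 5 do so was not analysed. The coding part of exon 2 holds 4 cysteine codons. No stop codon falls in frame in exon 3.

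In reads that reach both, the first exon and the exon 3 donor could be read together. Among reads with the Nr5a1-201 first exon, the longer exon 3 was present in 64 of 803 in replicate 2 (7.97%, 95% interval 6.19 to 10.1) and in 16 of 75 in replicate 1 (21.3%, 12.7 to 32.3). Among reads with any other donor into exon 2 it was present in 8 of 108 (7.41%, 3.25 to 14.1) and in 2 of 20 (10%, 1.23 to 31.7). The intervals overlap within each library, and a link between the choices was not tested. The shorter exon 3 was joined to the Nr5a1-201 first exon in 12 reads of replicate 2 and 2 of replicate 1, and to another first exon in 1 and 0. Some models hold a complete annotated coding sequence of SF-1, with its own junctions and no others. They took 838 of 1104 reads in replicate 2 (75.9%, 73.3 to 78.4) and 76 of 244 in replicate 1 (31.1%, 25.4 to 37.4). Of all junctions read in Nr5a1, 96.2% in replicate 2 and 93.7% in replicate 1 are in GENCODE M21.

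Nr0b1 (ENSMUSG00000025056.4, chromosome X, 86191764 to 86195947, plus strand) was the simplest member. All 17 reads in replicate 2 and 53 of 54 in replicate 1 were assigned to the annotated Nr0b1-201, with 2 exons and a single junction. This model holds the whole coding sequence, but its ends are not those of each read, so single reads may hold less. The remaining read of replicate 1 fell on an unspliced model of 597 nt. The bounds of that model are those of the annotated last exon, so the ends of the read itself are not shown. The share of Nr0b1-201 was 100% in replicate 2 (95% interval 80.5 to 100) and 98.1% in replicate 1 (90.1 to 99.95), which differed by less than the counting error (adjusted p = 1.0 by Fisher's exact test). The alternative transcript of DAX-1 described in human tissue, which keeps part of the intron, would appear as another chain, and no such chain was listed for the mouse gene here.

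Gata6 (ENSMUSG00000005836.10, chromosome 18, 11052064 to 11085635, plus strand) was read mostly in pieces. Its models joined to 25 chains, 23 of them spliced, and 3 were seen in both libraries. The most read chain lacked the noncoding first exon and held exons 2 to 7, with 6 of 16 reads in replicate 2 and 17 of 78 in replicate 1, and its shares did not differ by Fisher's exact test (37.5% and 21.8%, adjusted p = 0.38). The complete annotated Gata6-201 had 4 and 8 reads. Gata6-202, annotated as a retained intron, had 2 reads in replicate 2, and Gata6-205, annotated likewise, had 1 read in replicate 1. Models with a complete coding sequence took 10 reads in replicate 2 (62.5%, 95% interval 35.4 to 84.8) and 13 in replicate 1 (16.7%, 9.18 to 26.8). The chain of exons 2 to 7 counted towards this in replicate 2, with 6 reads, but not in replicate 1, with 17. The count rests on the ends of each library's models, so these shares cannot be compared between the libraries.

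The fragments of Gata6 lacked either end. In replicate 2, 4 of 16 reads were spliced and stopped at or before the end of exon 5 (25%, 95% interval 7.27 to 52.4), against 33 of 78 in replicate 1 (42.3%, 31.2 to 54.0). Not all of these are fragments. The first count includes the 2 reads of Gata6-202 and the second the 1 read of Gata6-205, both annotated retained-intron chains. The junction of exons 3 and 4 and that of exons 6 and 7 were each present in 11 of 16 reads of replicate 2. In replicate 1 they were present in 69 and 38 of 78 reads. Another annotated first exon is that of Gata6-206, at 11053044. This exon or a longer form of it was joined to exon 2 in 0 of 16 reads of replicate 2, a count whose interval reaches 20.6%. In replicate 1 it was joined to exon 2 in 14 reads (17.9%, 10.2 to 28.3). The first exon of Gata6-201 was joined to exon 2 in 8 reads of replicate 2 and 18 of replicate 1. GENCODE gives Gata6-206 with 2 exons only, while 6 of those 14 reads ran on to exon 7, 3 of them through annotated sites alone.

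**Figure D4:**
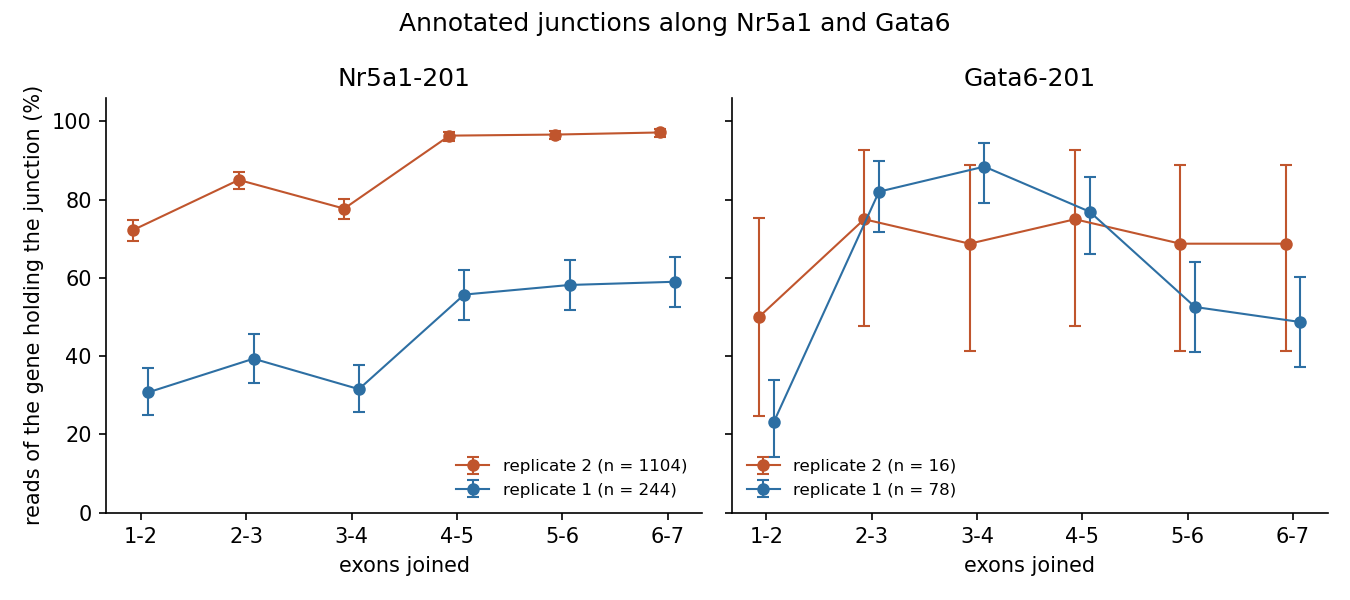
Share of the reads of Nr5a1 (left) and Gata6 (right) that hold each annotated junction of the 201 transcript, by the exons joined, with 95% Clopper-Pearson intervals; orange is replicate 2 and blue is replicate 1. In Nr5a1 the share is lowest at the first junction, dips between exons 3 and 4, and is highest at the last, with 97.2% in replicate 2 and 59.02% in replicate 1, and in Gata6 replicate 1 is highest in the middle of the gene.

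The other GATA gene was low, but all its reads in replicate 2 fell on models with a complete coding sequence. Gata4 (ENSMUSG00000021944.15, chromosome 14, 63198922 to 63271692, minus strand) had 7 reads in replicate 2, all spliced through 7 exons. Whether each read itself spans the whole coding sequence is not shown by the ends of the models. Of them 4 were Gata4-202, 2 were Gata4-201, and 1 combined the same coding exons with a first exon, at 63271584 to 63271692, that GENCODE lists in the partial transcript Gata4-204. In replicate 1 both reads were unspliced and lay inside introns, so no spliced Gata4 read was seen there.

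Gata4-201 and Gata4-202 differ at the acceptor of exon 3 as well as in the length of exon 1. The first 60 bases of the longer exon 3 are shown on the transcribed strand (mm10 chr14:63204699-63204758, minus strand, from the GENCODE M21 transcript), with the 3 bases that Gata4-202 leaves out in capitals.
Gata4-201 exon 3, start: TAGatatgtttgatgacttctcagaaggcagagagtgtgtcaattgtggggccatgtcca
Exon 3 is 170 nt long in Gata4-201 and 167 nt in Gata4-202. The 613 coding bases before it leave a remainder of 1, so the 3 letters in capitals are split between codons and are not a stop codon. The longer exon 3 was read 2 times and the shorter 5 times in replicate 2, counting the read with the distal first exon, and the acceptors cannot be ranked at this depth.

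Creb1 (ENSMUSG00000025958.14, chromosome 1, 64532645 to 64604548, plus strand) had few reads but an unusual leading chain. With 3 reads in replicate 2 and 2 in replicate 1, its most read chain in both libraries was a 9-exon chain that is not in GENCODE M21. In it, exon 3 is split in 2 segments, of 42 nt (64558503 to 64558544) and 105 nt (64558926 to 64559030), with 381 bases between them. Together the segments have 147 nt, which is the length of the annotated exon 3. The other exons are joined at the same sites as in the annotated 8-exon Creb1-202, which had 2 reads and 1 read. The last exon is shorter: the models of the split chain end at 64598275 in replicate 2 and 64597695 in replicate 1, and Creb1-202 at 64604548.

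The letters at the break are shown because they recur. Exon 3 and the start of the second segment are given on the plus strand of mm10 (chr1:64558503-64558649 and chr1:64558926-64558939), read from GENCODE M21 transcripts, the second from the retained-intron transcript Creb1-208. Capitals mark the 14 bases that follow the first segment within exon 3 and the same 14 bases at the start of the second segment.
Creb1 exon 3: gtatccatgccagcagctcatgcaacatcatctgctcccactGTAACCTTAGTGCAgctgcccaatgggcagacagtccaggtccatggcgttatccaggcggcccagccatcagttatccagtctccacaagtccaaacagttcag
Creb1 second segment, start: GTAACCTTAGTGCA
All 14 bases matched. The other 91 bases of the second segment are not in the transcript reference used here and were not compared.

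Of the other Creb1 reads, 1 in replicate 1 skipped the 183-nt exon at 64574073 to 64574255, joining annotated sites. The 42-nt exon at 64559727 to 64559768, which adds a stretch to the transactivation domain in the long annotated isoforms, was present in 0 of 6 spliced reads over exon 3 in replicate 2 and 0 of 4 in replicate 1. Models with a complete annotated coding sequence took 3 of 8 reads in replicate 2 and 1 of 5 in replicate 1.

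Ncoa2 (ENSMUSG00000005886.14, chromosome 1, 13139105 to 13374083, minus strand) was seen in fragments only. None of its 14 reads in replicate 2 or 7 reads in replicate 1 held the complete coding sequence, which is spread over many exons. Unspliced reads numbered 7 and 6, counting the single-exon annotated Ncoa2-211 with 1 read in replicate 1. The spliced chains, 7 reads in replicate 2 and 1 in replicate 1, each held a run of annotated exons, with up to 15 exons in 1 read. The junctions among them were annotated in 67 of 68 cases in replicate 2 and 8 of 8 in replicate 1. No chain was seen in both libraries.

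Wt1 (ENSMUSG00000016458.14, chromosome 2, 105126529 to 105173616, plus strand) and Tcf21 (ENSMUSG00000045680.8, chromosome 10, 22817281 to 22820174, minus strand) gave 3 reads and 1 read in all. The Wt1 protein comes in forms with or without an insert from exon 5 and with or without the KTS tripeptide from the end of exon 9, which lies between zinc fingers. The read of replicate 1 was Wt1-205, with exon 5 and the longer exon 9. In replicate 2, 1 read was Wt1-203, without exon 5 and with the longer exon 9, and 1 read was a 4-exon chain that ends at 105145611. The last exon of that chain starts at 105143085 and runs unspliced through the intron before exon 5, exon 5 itself and part of the next intron. Tcf21 had 1 read in replicate 2, of the annotated Tcf21-201. The alternative stretches of Wt1 are given on the plus strand (mm10 chr2:105144142-105144192 and chr2:105169926-105170018, from GENCODE M21 transcripts), the whole of exon 5 and, in exon 9, the 9 bases between its donors in capitals.
Wt1 exon 5: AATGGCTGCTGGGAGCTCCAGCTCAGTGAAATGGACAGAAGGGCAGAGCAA
Wt1 exon 9: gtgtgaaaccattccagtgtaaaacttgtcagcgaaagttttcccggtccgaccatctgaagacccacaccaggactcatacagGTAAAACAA
Exon 9 has 93 nt with these bases and 84 nt without them. The longer form was present in both reads that reach it. With a read for each spliced form of exon 5, no share can be given.

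**Figure D5:**
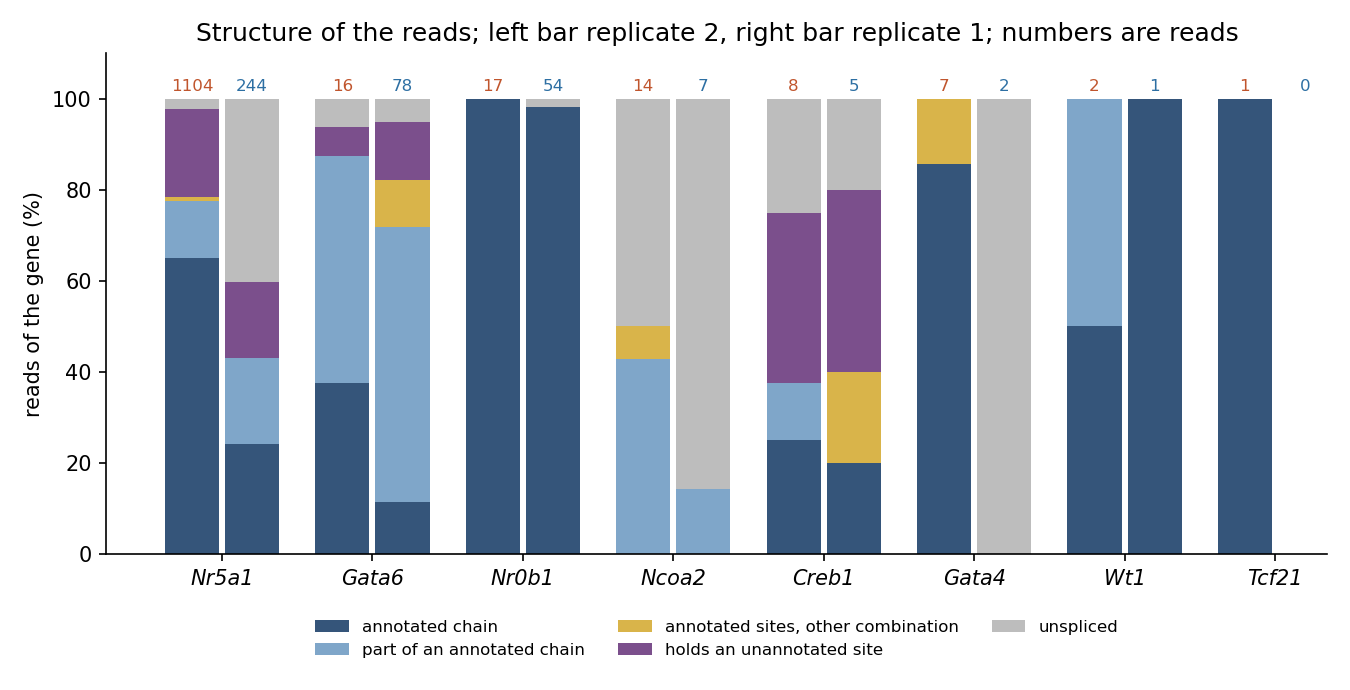
Share of the reads of each gene by structure, with the left bar of a pair for replicate 2 and the right for replicate 1 and the number of reads above it; chains were classed against GENCODE M21. Nr0b1 is annotated in 100% and 98.1% of its reads, and unspliced reads make up 2.36% of Nr5a1 in replicate 2 and 40.2% in replicate 1.

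Genes that work with these factors did not follow a common direction. The lists were chosen with earlier results of these data known. They are given as counts beside the background of 66.2% called, or 42.4% with the length adjustment. Of 15 partners and cofactors of SF-1, all were detected and 12 were tested, of which 3 were higher in replicate 2, 5 higher in replicate 1 and 4 not called. Their median log2 ratio was -0.58, against -0.01 over all genes tested. Ctnnb1, the beta-catenin gene, led with 735 ± 931 CPM (SD, n = 2) and a log2 ratio of 3.70. Edf1, a small bridging coactivator, had 164 ± 205 CPM and -4.45, and Ddx20, a helicase that represses SF-1, 73.3 ± 59.98 CPM and 1.42. With the length adjustment the ratio of Edf1 was -0.31 and that of Ddx20 0.27, neither called, while Ctnnb1 kept 2.20.

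Of 5 relatives and cofactors of CREB, 4 were tested, of which 1 was higher in each library and 2 were not called. Crem, whose products activate or repress at cyclic AMP response elements, had 95.8 ± 70.5 CPM and a log2 ratio of -2.12, which turned to 1.72 with the length adjustment. Atf1, a close relative that pairs with CREB, had 49.2 ± 43.4 CPM and 1.61, and Crtc3, a coactivator, 11.7 ± 4.46 CPM and -1.19, not called. Crtc3 was called with the length adjustment, at -2.47. Of 6 other GATA genes and cofactors, Gata1 and Gata5 had 0 reads in both libraries. Gata2 had 58.97 ± 53.7 CPM and a log2 ratio of 1.71, and Gata3, which chromaffin cells of the medulla express, 24.4 ± 5.64 CPM and -0.92, not called. With the length adjustment Gata2 was at 0.20, not called, and Gata3 at -2.33, called. Zfpm2, a GATA cofactor, had 6 reads in replicate 2 and 0 in replicate 1.

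Target genes of SF-1 were all detected and showed both directions. Of 12 tested, 4 were higher in replicate 2, 7 higher in replicate 1 and 1 not called, with a median log2 ratio of -0.91. With the length adjustment the counts were 5, 4 and 3 and the median 0.07. Over all 9173 genes tested with that adjustment, 42.4% were called and the median was 0.06. Cyp21a1, the 21-hydroxylase, had 27639 ± 5350 CPM and -0.87, Cyp11b1, the 11-beta-hydroxylase, 22490 ± 12120 CPM and 0.69, and Star, the cholesterol carrier into mitochondria, 16511 ± 9728 CPM and 0.81. With the length adjustment Star was at -0.60 and Cyp11b1 at -0.70, on the other side of 0. Over the 12 genes, which include the 6 cortex markers, the sum was 100323 CPM in replicate 2 and 86720 CPM in replicate 1, while Nr5a1 itself stood at 1878 and 301 CPM. With 2 libraries no relation between Nr5a1 and its targets can be tested.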

How the data were processed

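Long-read RNA-seq of the mouse adrenal gland was analysed from 2 biological replicates of 1 group. For each library the authors deposited raw counts of reads for every transcript model. Per the file headers the models were built with TALON from GENCODE M21 and mm10. A model without reads is not listed. What platform, cDNA preparation, aligner and tool versions were used is not given in the sources used here. The members, gene lists and tests were chosen with earlier results of these data known. All 8 members were named, and of each other list the 3 genes with the highest mean level and those with 0 reads in both libraries. Donors, exons and single-read chains described in the text were singled out after their values were seen.

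Counts were summed per gene, and CPM were taken over all 587861 reads of replicate 2 and all 810239 of replicate 1. A count of 0 allows 3 reads, or 5.10 and 3.70 CPM. Intervals are 95% Clopper-Pearson, for counting error only, since amplified reads are not independent molecules. Genes with at least 10 reads over both libraries were compared by an exact two-sided binomial test with TMM-scaled sizes (edgeR 4.0.16), Benjamini-Hochberg adjustment at 0.05 and a pseudocount of 0.5 reads in log2 ratios. It compares these libraries, whose difference may be technical. The length adjustment used a lowess curve (statsmodels 0.14.6, span 0.3, genes with at least 20 reads). The share of the most used model was compared by Fisher's exact test (scipy 1.17.1) where each library had 10 or more reads of the gene. Spliced models were matched by junction chain and classed again against GENCODE M21. Model ends are those of the model, not of each read. Tests were tried on simulated data first. A marker list that was measured is not reported here. Sequences were read from GENCODE M21 transcripts on mm10. Alternatives were DESeq2 1.42.0 size factors, total counts, other read minimums, spliced or annotated models only, a pseudocount of 1 read and the length adjustment.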

Additional observations from a re-analysis of the deposited data

Results flagged for a closer look

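Unspliced models on the other strand of 3 members, outside the counts of the genes themselves, held more reads than the 3 that a count of 0 allows. Over Nr5a1 there were 19 such reads in replicate 2 and 89 in replicate 1, or 1.69% (95% interval 1.02 to 2.63) and 26.7% (22.0 to 31.8) of the reads of both strands. In replicate 1 all 89 lay at 38692656 to 38696128, and in replicate 2, 17 lay at 38690579 to 38696127, over the last exon of Nr5a1 and the part of intron 6 that unspliced reads of the gene itself also covered. Over Ncoa2 there were 5 in replicate 2 and 12 in replicate 1, from 13214183 to 13217095 and 13217094, where replicate 1 also had 2 unspliced reads of the gene's own strand with the same bounds.

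Over Gata6 there were 7 such reads in replicate 2, in 3 places, and 4 in replicate 1, in 2 places. The annotated antisense neighbours Nr5a1os and Wt1os had 0 reads in both libraries. The neighbours 1010001N08Rik of Gata6 and Mettl21a of Creb1 had 7 and 8 reads in replicate 2 and 32 and 9 in replicate 1. All the antisense models were unspliced, so no junction shows their strand, which rests on the authors' processing. Whether these reads are transcripts of their own was not tested.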

How the results depend on the processing

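No paired analysis was possible because the series has a single group. The count of 6497 genes that differ came to 4037 of 4705 with at least 50 reads and to 3889 of 9173 with the length adjustment, and stayed within 1.5 times under 5 other settings. The count of 1359 genes with a different share of the most used model came to 723 of 4024 with spliced models only, and stayed within 1.5 times with at least 5 or 20 reads in each library. Scaling to total counts gave all genes a median log2 ratio of 0.42, against -0.01 with TMM. Nr5a1 remained called under all 8 alternatives, from 0.97 with the length adjustment to 3.53 with annotated models only. Of 35 log2 ratios of members recomputed, 32 kept their call, and those of Nr0b1, Ncoa2 (length adjustment) and Gata6 (annotated models only) did not. Annotated models only moved the mean level of Gata6 to 10.7, of Creb1 to 2.32 and of Ncoa2 to 0.617 CPM. Levels with 1 library left out are those of the other library. Depth limits Wt1 and Tcf21 to presence in single reads, Gata4 to 7 reads in replicate 2 and 2 in replicate 1, and shares of Gata6, Creb1 and Ncoa2 to wide intervals.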
